A study of Homo sapiens with 8 samples.

Results

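The genes described here are those of the human translation initiation and elongation factors. They are the RefSeq protein-coding genes on chromosomes 1 to 22 and X whose symbols start with EIF1 to EIF6, EEF1 or EEF2, together with TPT1, PABPC1 and ETF1. The rule found 72 genes among 19974 protein-coding genes and used symbols only, no measured value. KAS-seq maps opened DNA in living cells: the azide-carrying reagent N3-kethoxal reacts with guanines of single-stranded DNA, such as the DNA inside a transcription bubble, and the labelled fragments are enriched and sequenced. The libraries were from HEK293T, an established human embryonic kidney line, and were either given 0.5 mM vitamin C (ascorbic acid) in the medium for 10 min before labelling or left as controls without it. All 4 libraries used were labelled with 5 mM N3-kethoxal for 10 min, and there were 2 per condition. Each has its own list of peaks, and the 4 unlabelled input libraries of the series were not analysed here.

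The lists held 9816 and 9896 peaks in the vitamin C libraries, against 30351 and 24111 peaks in the control libraries. Those peaks covered 4.92 and 4.73 Mb of the genome in the vitamin C libraries, against 15.6 and 12.9 Mb in the control libraries. The number of reads behind each list is not part of the lists, so the part that sequencing depth and peak calling play in these lengths was not tested, and fewer cells with opened DNA and less opened DNA per cell cannot be told apart. The cell line field of the labels gives a different number in some samples, while all titles name HEK293T. Of 9 marker genes of this line, 3 had a peak in any library: VIM in all 4, EYA1 in 1 vitamin C library and both controls, and LIN28B in the controls alone. PAX2, NEFM, NES, KRT8, KRT18 and CDH2 had none. These markers summed to 1091 and 1303 bp covered in the vitamin C libraries, against 4738 and 4866 bp in the control libraries. ALB, a marker of liver cells, had 209 and 0 bp covered in the vitamin C libraries, against 0 bp in both control libraries. Nothing in the labels states that the 2 libraries of a condition are separate cultures, and the spread between them may be technical only.

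Translation initiation starts when the eIF4F complex binds the cap of an mRNA and recruits, through eIF3, a small ribosomal subunit that carries the initiator tRNA on eIF2. The subunit scans to a start codon, GTP is hydrolysed, and the large subunit joins. The elongation factor eEF1A then brings each aminoacyl-tRNA to the ribosome and eEF2 moves the ribosome along the mRNA. Many mRNAs of this machinery begin with a terminal oligopyrimidine (TOP) sequence, a cytosine followed by a run of pyrimidines, through which mTOR signalling controls their translation.

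With vitamin C, peaks covered fewer bases of these genes and fewer of the genes had a peak at all. Each gene was widened by 1 kb on both sides, and the bases of that window that lay in a peak were counted. A peak lay at 45 and 44 of the 72 genes in the vitamin C libraries, against 65 and 58 in the control libraries. The covered length summed to 89269 and 81796 bp in the vitamin C libraries, against 225686 and 194982 bp in the control libraries. The means were 85.5 ± 5.28 kb with vitamin C and 210 ± 21.7 kb in the controls (SD, n = 2 each), a log2 ratio of -1.30. The vitamin C libraries thus held 40.7% of the control length at these genes, against 32.8% over all protein-coding genes, where the log2 ratio was -1.61. With 2 libraries against 2, an exact two-sided permutation test cannot give a p below 0.333, so each difference between the conditions is given as values and as whether the groups overlap.

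A peak was present in all 4 libraries at 39 of the 72 genes, beside 17.5% of all protein-coding genes. A further 9 genes had a peak in both controls and in 1 vitamin C library, and 10 had peaks in both controls and in neither vitamin C library, beside 9.47% of all genes. No gene of the group had peaks in both vitamin C libraries and in neither control, beside 0.025% of all genes. Translation factor genes more often carried a control peak than other genes, so the share among genes with a peak in both controls is the closer background. Of the 58 such translation factor genes, 67.2% had peaks in all 4 libraries and 17.2% in the controls alone. Among all 7047 such genes the shares were 49.7% and 26.8%. Fewer bases were covered in both vitamin C libraries than in both controls at 55 of the 72 genes (76.4%), beside 31.8% of all genes. A gene without a peak in both controls cannot be lower by this rule. The 55 were thus among the 65 translation factor genes with a peak in any library, beside 67% of all such genes. They were also among the 58 with a peak in both controls, beside 90.3% of all such genes (6360 of 7047). No translation factor gene had more bases covered in both vitamin C libraries than in both controls, beside 0.0801% of all genes.

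These counts depended on how long the lists were. When each list was held to its 9816 strongest peaks, the number of peaks in the shortest list, the log2 ratio of covered length was -0.58 for the translation factor genes and -0.67 for all genes. With equal lists, 27 translation factor genes (37.5%) were lower in both vitamin C libraries than in both controls, beside 12.5% of all genes. A lower gene must have a peak in both controls, which 39 translation factor genes and 3883 of all genes then had. The 27 lower genes were thus among 39, beside 2499 lower genes among 3883. EIF4E was the 1 gene (1.39%) with peaks in the controls alone, beside 1.44% of all genes. A median of 66.4% of the control length per gene then remained at the translation factor genes, against 58.9% over all genes.

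**Figure D1:**
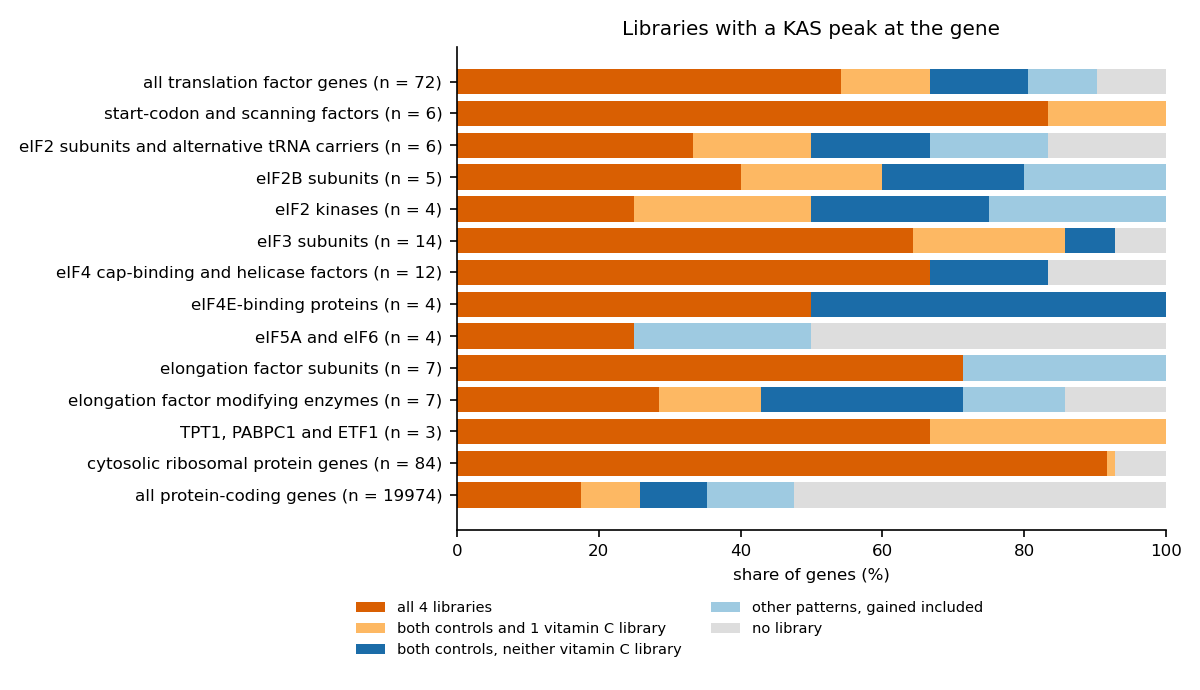
Presence of a peak at the genes of each translation role and at the sets used for comparison, as the percent of genes (horizontal axis, 0 to 100%) in each presence class (colours); the role names run down the page. Elongation factor subunits have no gene with peaks in the controls alone, while 2 of the 4 eIF4E-binding protein genes have.

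Summed over elongation factor genes, most of the covered length was kept. Over 7 genes grouped as elongation factor subunits, EEF1E1 among them, covered length with vitamin C was 71.6% of that in the controls. Most of that length lay at EEF1A1, EEF1G and EEF2, and the share kept per gene ranged from 0% at EEF1D to 100% at EEF1A1. EEF1A1 encodes eEF1A, the carrier of aminoacyl-tRNA, and lies at chr6:73515750-73521032 on the minus strand (GRCh38.p14, the build of the peak lists). Peaks covered 6213 and 5526 bp of EEF1A1 in the vitamin C libraries, against 5609 and 6075 bp in the control libraries. The groups overlapped at this gene, and the mean length with vitamin C was 100% of the control mean, a difference of 27.5 bp. The difference (vitamin C minus control) was -970.5 bp when the gene was widened by 5 kb and -1516.5 bp when only peaks with their summit in the window were counted. Peaks covered 80.2% of the EEF1A1 window in the controls, the highest share of the 72 genes. Peaks at EEF1A1 may include reads from its processed pseudogenes, since the handling of reads that map to several places is not given in the sources used here.

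EEF2, at chr19:3976056-3985463 on the minus strand, encodes the translocase. Its covered length was 4962 and 4207 bp in the vitamin C libraries, against 6142 and 5681 bp in the control libraries, 77.6% of the control mean. The groups did not overlap. In the controls the peak at its end ran on into the neighbouring gene DAPK3, and leaving out peaks over other coding genes, or counting summits only, turned the direction at EEF2. EEF1G, at chr11:62559596-62573891, encodes a subunit of the eEF1B complex that recharges eEF1A with GTP. It had 8579 and 6844 bp covered in the vitamin C libraries, against 12431 and 12286 bp in the control libraries, 62.4% of the control mean. The vitamin C libraries were both lower than the controls, and the peaks they had were scattered along the whole gene. In contrast, the other eEF1B subunit genes had little: EEF1B2 was covered at 205 and 0 bp in the vitamin C libraries, against 681 and 0 bp in the control libraries, and EEF1D had 264 bp in 1 control and none elsewhere. EEF1A2, the eEF1A isoform of brain and muscle, had peaks in all 4 libraries that reached only 74 and 178 bp into its window with vitamin C, against 178 and 155 bp in the controls. EEF1E1, which encodes a protein of the multi-tRNA synthetase complex, had peaks in all 4 libraries and kept 45.7% of its control length.

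The 7 genes of enzymes that modify elongation factors were at the other end, with 15.5% of the control length. EEF2KMT, whose product methylates eEF2, had 0 bp covered in both vitamin C libraries, against 2131 and 484 bp in the control libraries. Its control peaks lay partly over the neighbouring gene ALG1, and no peak of 1 control overlapped a peak of the other. The readthrough gene EEF1AKMT4-ECE2 had 0 bp in both vitamin C libraries, against 210 and 244 bp in the control libraries, all of it in peaks over other coding genes. EEF1AKMT2 and EEF1AKMT3, which encode eEF1A lysine methyltransferases, had peaks in all 4 libraries. EEF1AKMT1 had them in both controls and 1 vitamin C library, EEF1AKMT4 in 1 control, and EEF2K, the kinase that inhibits eEF2, in none.

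The starts of 9 translation factor genes follow, because the TOP sequence that 6 of them share lies at the first base of the transcript. Each line gives 60 bases before the annotated start and the first 30 bases of the transcript, 5′ to 3′, from RefSeq (GRCh38.p14). Capitals mark the TOP run, a C at the first transcript base followed by at least 4 bases that are C or T. EIF4A1, EEF1G and EIF4E, at the end of the list, have no such run.
EEF1A1: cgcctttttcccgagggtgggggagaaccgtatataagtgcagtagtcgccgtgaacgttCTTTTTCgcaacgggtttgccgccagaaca
TPT1: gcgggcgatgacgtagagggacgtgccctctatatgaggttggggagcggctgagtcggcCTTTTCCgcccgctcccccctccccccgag
EEF2: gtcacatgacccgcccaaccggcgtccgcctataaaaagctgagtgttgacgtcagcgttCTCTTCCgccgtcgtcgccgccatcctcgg
EIF4A2: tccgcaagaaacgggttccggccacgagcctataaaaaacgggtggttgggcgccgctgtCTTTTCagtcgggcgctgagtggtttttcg
EIF4B: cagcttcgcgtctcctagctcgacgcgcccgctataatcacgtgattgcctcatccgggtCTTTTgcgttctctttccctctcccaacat
EIF3D: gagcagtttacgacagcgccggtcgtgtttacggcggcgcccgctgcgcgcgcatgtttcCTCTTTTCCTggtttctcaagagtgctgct
EIF4A1: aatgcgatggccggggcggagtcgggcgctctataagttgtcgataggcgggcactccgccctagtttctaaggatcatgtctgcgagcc
EEF1G: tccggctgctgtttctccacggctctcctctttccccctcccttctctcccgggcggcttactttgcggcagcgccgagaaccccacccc
EIF4E: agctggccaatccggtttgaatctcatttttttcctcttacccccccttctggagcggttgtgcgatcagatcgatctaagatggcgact
These stretches lie at chr6:73521003-73521092, chr13:45341154-45341243, chr19:3985434-3985523, chr3:186783517-186783606, chr12:53006396-53006485, chr22:36529137-36529226, chr17:7572765-7572854, chr11:62573862-62573951 and chr4:98929104-98929193, in the order of the lines; EIF4A2, EIF4B and EIF4A1 are on the plus strand and the rest on the minus strand.

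**Figure D2:**
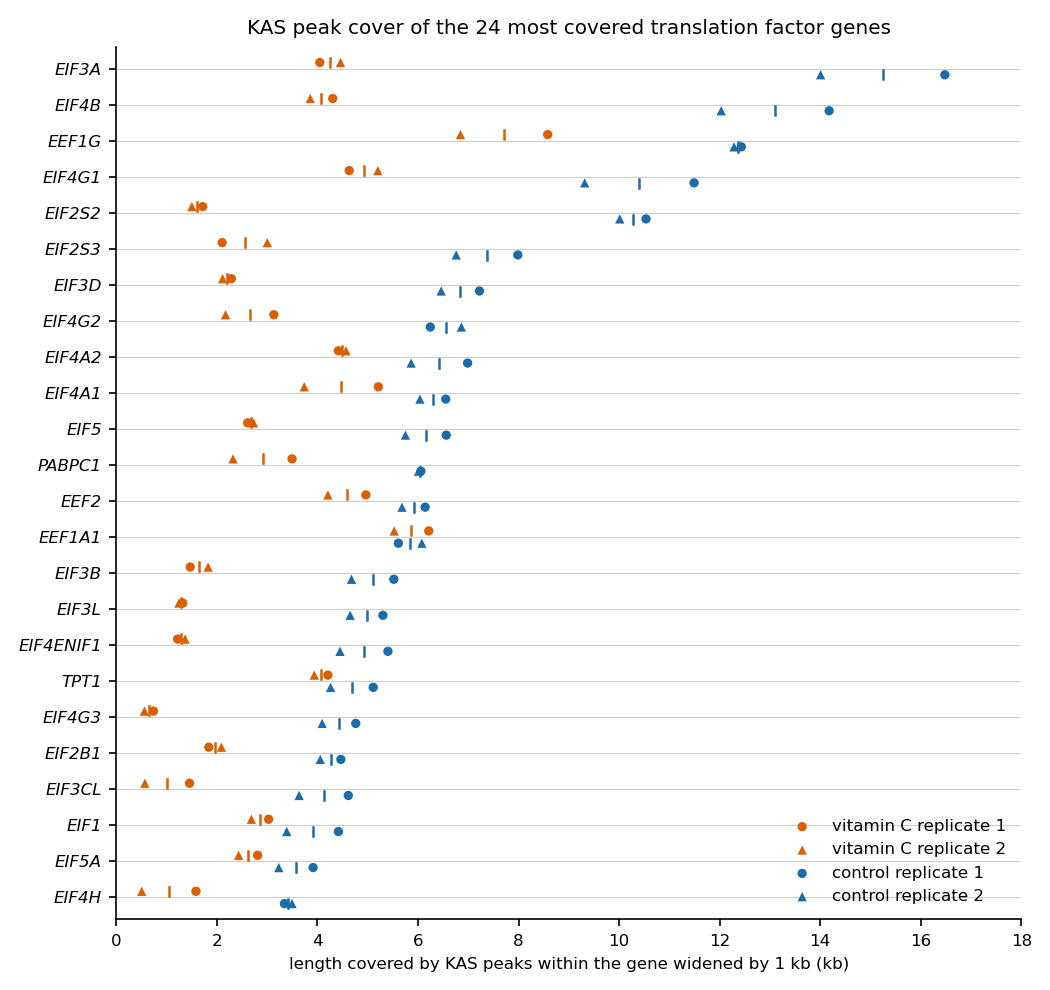
Covered length in kb (horizontal axis) at the translation factor genes with the most covered bases, with circles for replicate 1, triangles for replicate 2, a tick for the mean, and vitamin C above control for each gene. EIF3A, EIF4B and EIF2S2 show wide gaps between the conditions, while the points of EEF1A1 overlap.

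Cap-binding and helicase factor genes ranged from no cover with vitamin C to most of the control length. Over the 12 genes of this role, covered length with vitamin C was 42.4% of that in the controls, 8 had peaks in all 4 libraries and 2 in the controls alone. EIF4A1 and EIF4A2 encode the RNA helicase eIF4A. EIF4A2, at chr3:186783577-186789897, had 4415 and 4567 bp covered in the vitamin C libraries, against 6986 and 5863 bp in the control libraries, 69.9% of the control mean. EIF4A1, at chr17:7572825-7579006, had 5211 and 3737 bp in the vitamin C libraries, against 6551 and 6038 bp in the control libraries, 71.1% of the control mean. At each gene both vitamin C libraries were lower than both controls. Both genes host small nucleolar RNA genes in their introns, and the EIF4A1 window also touches SENP3 and CD68. In both controls a single peak ran across SNORD10, SNORA67 and CD68, and leaving out peaks over small RNA genes or over other coding genes, or counting summits only, turned the direction at EIF4A1. At EIF4A2, without peaks over small RNA genes, 2117 and 427 bp were covered with vitamin C, against 601 and 2361 bp in the controls, and the groups overlapped. They also overlapped without peaks over other coding genes, with 2798 and 1101 bp with vitamin C, against 2520 and 4139 bp in the controls.

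EIF4G1 and EIF4G2 encode the scaffold of eIF4F and a relative that lacks the eIF4E-binding part. EIF4G1, at chr3:184314606-184335358, had 4631 and 5201 bp covered in the vitamin C libraries, against 11490 and 9315 bp in the control libraries, 47.3% of the control mean. EIF4G2, at chr11:10797046-10808926, had 3132 and 2171 bp in the vitamin C libraries, against 6244 and 6862 bp in the control libraries, 40.5% of the control mean. The vitamin C libraries were lower than both controls at each of these genes. With lists of equal length the groups overlapped at EIF4G2, with 3132 and 2171 bp in the vitamin C libraries, against 5087 and 2950 bp in the control libraries. EIF4B, at chr12:53006456-53042215, encodes a cofactor of the helicase and had 4303 and 3856 bp in the vitamin C libraries, against 14177 and 12031 bp in the control libraries, 31.1% of the control mean. Its peaks inside the gene accounted for most of the difference: 1786 and 1412 bp lay there with vitamin C, against 10695 and 9330 bp in the controls. Within 1 kb of its annotated end, 1642 and 1397 bp were covered with vitamin C, against 2001 and 1698 bp in the controls.

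EIF4E, at chr4:98879276-98929133 on the minus strand, encodes the protein that binds the mRNA cap. None of its bases were covered in either vitamin C library, against 1840 and 1768 bp in the control libraries. Of the 10 genes with peaks in the controls alone, EIF3J was the 1 with a longer control cover. The strongest control peaks of EIF4E ranked at the 90.7 and 90.1 percentile of the authors' fold enrichment within each list. Beyond its widened window, further past the annotated end, peaks were present in all 4 libraries. In the 5 kb past the end they covered 316 and 338 bp with vitamin C, against 671 and 903 bp in the controls. The related gene EIF4E2 had 0 bp in both vitamin C libraries, against 596 and 366 bp in the control libraries, where the peaks of the 2 controls lay in different places. EIF4E3 and EIF4E1B had no peak in any library. EIF4A3, the helicase of the exon junction complex, EIF4H and EIF4G3 had peaks in all 4 libraries, and EIF4G3 kept 14.6% of its control length.

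The 4 genes of eIF4E-binding proteins had 21.5% of the control length. EIF4EBP1 and EIF4EBP2 encode the mTOR-regulated repressors that hold eIF4E away from eIF4G. EIF4EBP1 had 0 bp in both vitamin C libraries, against 335 and 619 bp in the control libraries. EIF4EBP2 had 0 bp in both vitamin C libraries, against 210 and 1529 bp in the control libraries. At both genes the control peaks were short and few, and the controls overlapped each other at 1 place or more. EIF4EBP3 had peaks in all 4 libraries, but each lay over another annotated coding gene, since the ANKHD1-EIF4EBP3 readthrough gene and SRA1 share its window. EIF4ENIF1, which encodes an eIF4E transporter, also had peaks in all 4.

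**Figure D3:**
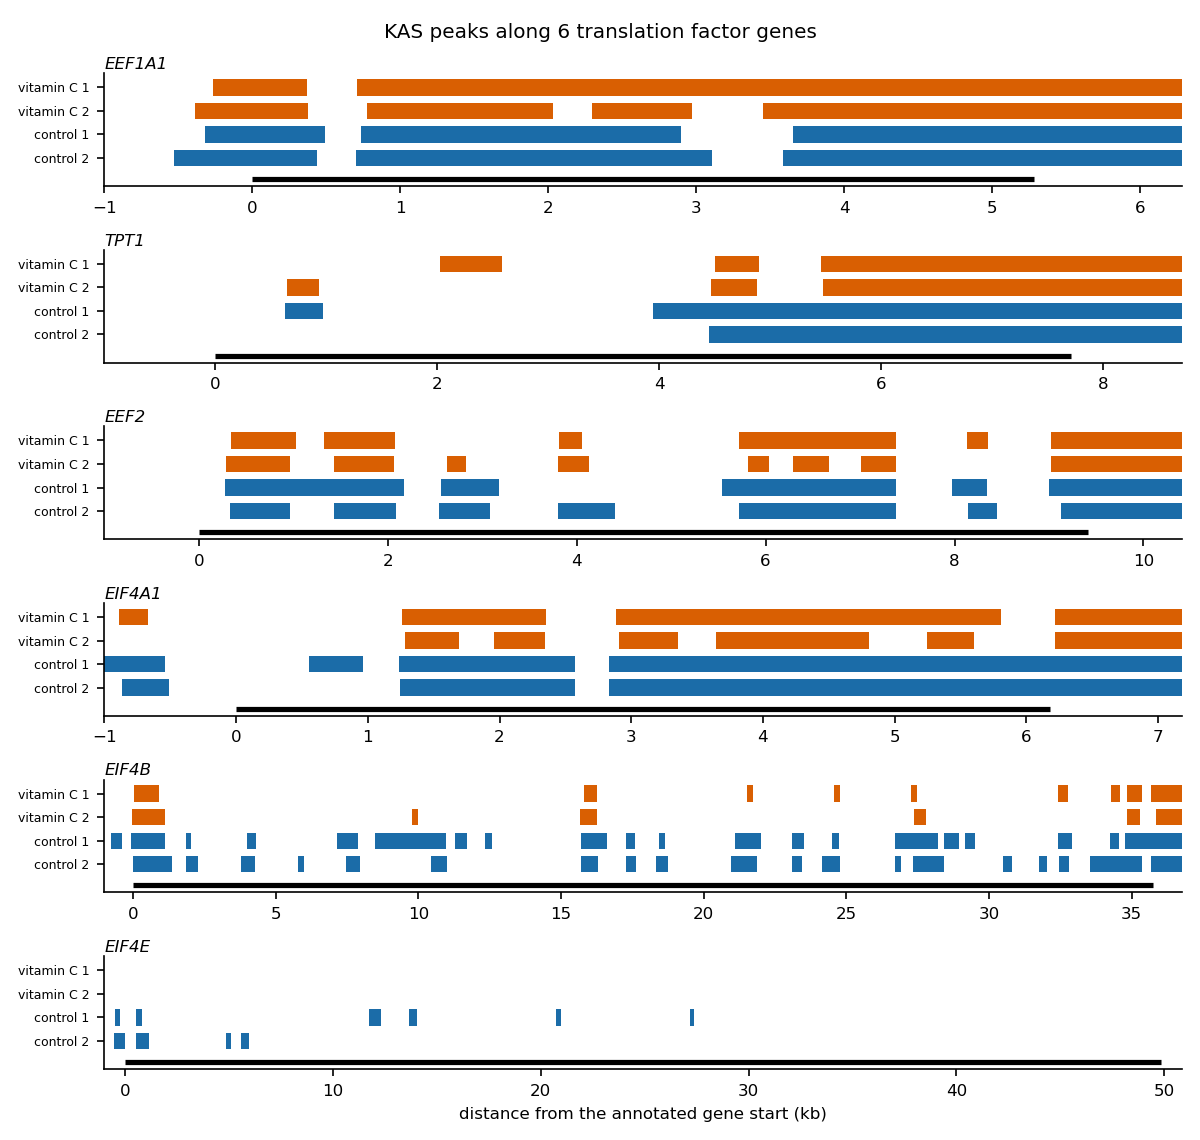
Peaks of the 4 libraries, vitamin C above control, along selected translation factor genes, against distance from the annotated start in kb (horizontal axis); the black line is the annotated gene. EIF4E has no bar in the vitamin C libraries within its gene, while TPT1 and EEF1A1 have long bars at the end of the gene in all 4.

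The genes of eIF2, which carries the initiator tRNA, were among those with the lowest share of covered length. With the alternative carriers EIF2A and EIF2D, these 6 genes held 23.3% of the control length. EIF2S2, at chr20:34088309-34112243, encodes the beta subunit and had 1716 and 1501 bp covered in the vitamin C libraries, against 10535 and 10013 bp in the control libraries, 15.7% of the control mean. EIF2S3, at chrX:24054956-24078810, encodes the gamma subunit and had 2105 and 3002 bp in the vitamin C libraries, against 7985 and 6759 bp in the control libraries, 34.6% of the control mean. With lists of equal length the groups overlapped at EIF2S3. It then had 2105 and 3002 bp in the vitamin C libraries, against 778 and 4071 bp in the control libraries. The difference of the means (vitamin C minus control) turned to 129 bp. As deposited, both genes were lower in each vitamin C library than in each control, and had peaks in all 4 libraries. EIF2S1, which encodes the alpha subunit that stress kinases phosphorylate, had little in any library: 0 and 229 bp with vitamin C, against 473 and 0 bp in the controls. EIF2D had 0 bp in both vitamin C libraries, against 677 and 310 bp in the control libraries. EIF2A had peaks in both controls and 1 vitamin C library, and EIF2S3B, a near copy of EIF2S3, had none.

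The exchange factor eIF2B reloads eIF2 with GTP, and its 5 genes held 43.6% of the control length. EIF2B1 and EIF2B4 had peaks in all 4 libraries, EIF2B2 in both controls and 1 vitamin C library, and EIF2B5 in 1 control. EIF2B3 had 0 bp in both vitamin C libraries, against 231 and 266 bp in the control libraries, where the single peak of each control lay at a different place of this long gene. The 4 kinases of eIF2 held 32.8% of the control length. EIF2AK1, the heme-regulated kinase, had peaks in all 4 libraries, mostly over the neighbouring genes AIMP2 and ANKRD61. EIF2AK3, also known as PERK, had them in both controls and 1 vitamin C library, and EIF2AK2, the kinase PKR, in 1 control. EIF2AK4, known as GCN2, had 0 bp in both vitamin C libraries, against 222 and 219 bp at 1 place in the control libraries.

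eIF3 is the large scaffold that joins the mRNA complex to the small ribosomal subunit. Its 14 genes held 27.9% of the control length, 9 had peaks in all 4 libraries, and 13 were lower in both vitamin C libraries than in both controls. These 13 are all the eIF3 genes with a peak in both controls, beside the 90.3% of all such genes that were lower. EIF3A, at chr10:119033670-119080817, was the gene with the longest control cover of the 72. It had 4046 and 4457 bp in the vitamin C libraries, against 16479 and 14008 bp in the control libraries, 27.9% of the control mean. The number of its peaks was 10 and 9 with vitamin C, against 30 and 29 in the controls. EIF3D, at chr22:36510855-36529166, encodes a subunit that can itself bind caps and had 2287 and 2113 bp in the vitamin C libraries, against 7222 and 6460 bp in the control libraries, 32.2% of the control mean. At both genes the conditions were far apart compared with the gap between replicates. EIF3J, a loosely attached subunit, was the 1 eIF3 gene with peaks in the controls alone: it had 0 bp in both vitamin C libraries, against 1471 and 2423 bp in the control libraries. EIF3B, EIF3C, EIF3CL, EIF3E, EIF3F, EIF3I and EIF3L also had peaks in all 4 libraries, and kept between 17.9% (EIF3E) and 46.7% (EIF3C) of their control length. EIF3C and EIF3CL are near copies, and reads could have been split between them. EIF3G, EIF3K and EIF3M had peaks in both controls and 1 vitamin C library, and EIF3H had none.

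The 6 genes of start-codon and scanning factors held 48% of the control length. EIF5, at chr14:103334237-103345025, encodes the GTPase activator that acts when the start codon is found, and had 2610 and 2728 bp in the vitamin C libraries, against 6562 and 5749 bp in the control libraries, 43.4% of the control mean. Most of what was covered with vitamin C lay near the annotated end, with 1779 and 1784 bp there, against 2001 bp in each control. EIF1, which keeps the scanning ribosome open, had 3028 and 2685 bp in the vitamin C libraries, against 4417 and 3388 bp in the control libraries, and kept 73.2% of the control mean. At its end, 2001 and 1756 bp were covered with vitamin C, against 2001 and 1982 bp in the controls. EIF1AX, EIF1B and EIF1AD had peaks in all 4 libraries, and EIF5B, which joins the subunits, had them in both controls and 1 vitamin C library. EIF5A, a factor that helps the ribosome through difficult peptide bonds, had peaks in all 4 and kept 73.4% of the control mean. EIF6 had a peak in 1 control, and EIF5A2 and EIF5AL1 had none.

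TPT1, at chr13:45333471-45341183 on the minus strand, encodes the translationally controlled tumour protein, a classic product of a TOP mRNA. It had 4207 and 3936 bp covered in the vitamin C libraries, against 5109 and 4261 bp in the control libraries, 86.9% of the control mean, and the groups did not overlap. Its widest peak was 6381 and 6526 bp long with vitamin C, against 11474 and 10495 bp in the controls, and ranked at or above the 99 percentile of fold enrichment within each list. In the controls this peak also ran over the small RNA gene SNORA31B, which in the vitamin C libraries had a short peak of its own, and leaving out peaks over small RNA genes turned the direction at TPT1. PABPC1, at chr8:100702916-100722088, encodes the poly(A)-binding protein that closes the mRNA loop with eIF4G, and had 3494 and 2320 bp in the vitamin C libraries, against 6057 and 6010 bp in the control libraries, 48.2% of the control mean. ETF1, the gene of the release factor eRF1, had 421 and 0 bp in the vitamin C libraries, against 3306 and 1899 bp in the control libraries. At both of these genes the vitamin C libraries were lower than the controls. With lists of equal length the groups overlapped at ETF1, with 421 and 0 bp in the vitamin C libraries, against 606 and 241 bp in the control libraries.

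The place of the covered bases within the genes also differed between the conditions. Strand was known for 57 of the 72 genes, and their windows were split into the stretch within 1 kb of the start, the stretch within 1 kb of the end, and the inner part. The end held 31.8% of the covered bases in each vitamin C library, equal after rounding, and 20.1% ± 0.424 in the controls (SD, n = 2 each). The inner part held 56.1% ± 1.41 with vitamin C and 69.4% ± 0.141 in the controls, and the start 12.1% ± 1.41 with vitamin C and 10.5% ± 0.566 in the controls. The groups overlapped for none of the 3 stretches, and those of the start lay closest together, with 11.1% and 13.1% with vitamin C, against 10.1% and 10.9% in the controls. Over all genes with a strand the end held 21.1% with vitamin C and 17.4% in the controls, and the inner part 58% with vitamin C and 65.8% in the controls. In bases, the translation factor genes kept 72% of the control length at the end, 36.8% in the inner part and 52.2% at the start. All genes kept 40.1% at the end, 28.9% in the inner part and 40.6% at the start. Without EEF1A1, EEF1G, EEF2, TPT1, EIF4A1 and EIF4A2, the end held 31.8% with vitamin C and 17.6% in the controls. The difference in the end share, 11.74 percentage points, was 5.68 with lists of equal length, 5.78 without widening and 7.50 with genes widened by 5 kb. That in the start share, 1.57 points, was -0.14 with lists of equal length, the opposite direction, and 3.83 without widening.

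**Figure D4:**
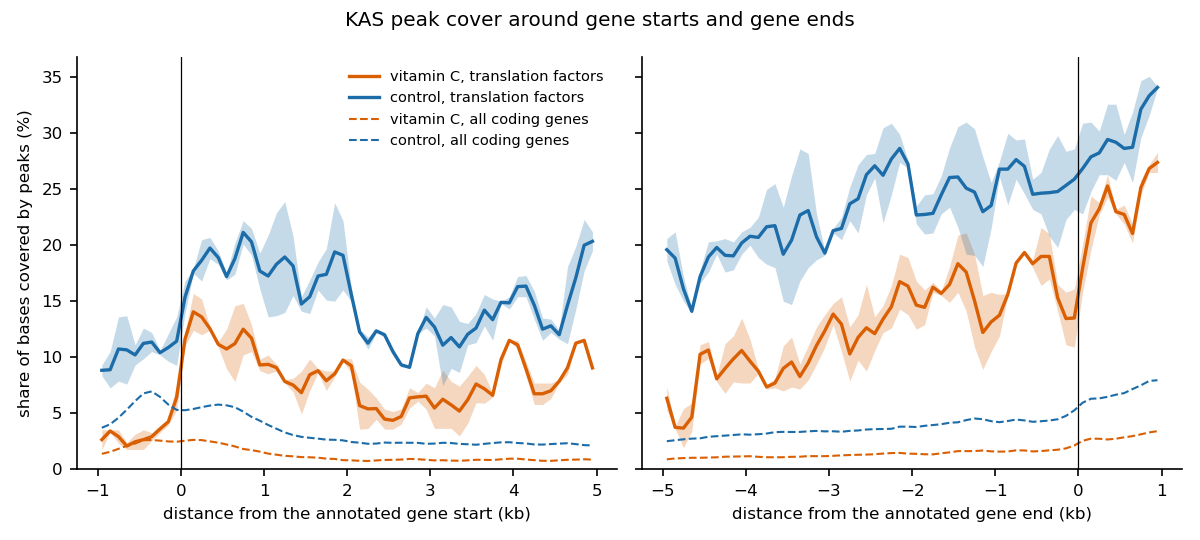
Percent of bases covered by peaks (vertical axis) against distance in kb from the annotated start (left) and the annotated end (right), in the 57 translation factor genes with known strand; solid lines are means of the 2 libraries of a condition, bands run from the lower to the higher library, and dashed lines are all coding genes. The vitamin C line stays below the control line throughout, and in both conditions the cover of translation factor genes is highest past the annotated end.

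At several genes the peaks ran past the annotated end. A measure added after these peaks had been seen took the 5 kb beyond the end of the 35 genes where no other coding gene lies there. Past these ends, 27452 and 26643 bp were covered with vitamin C, against 48422 and 41983 bp in the controls, so that 59.8% of the control length was kept. Both vitamin C libraries were lower than both controls at 20 of the 35 genes, beside 15.2% of 9649 genes measured the same way. Those 9649 genes kept 39.5% of their length. Any cover past the end was present at 23 of the 35 genes and at 2473 of the 9649. Of the genes with such cover, 20 of 23 were lower, beside 1464 of 2473. A gene without cover past the end in both controls cannot be lower by this rule. EEF1B2, EIF4E2 and EIF2A did not have cover there in both controls, and every translation factor gene that did was lower. The matching share of all genes was not counted, so a difference from all genes cannot be read from these counts. Past the end of TPT1, peaks covered 4168 and 4725 bp with vitamin C, against 5000 bp in each control, the whole stretch. Past the end of EEF1A1 they covered 3279 and 3631 bp with vitamin C, against 4501 and 4405 bp in the controls. At EIF4A3, 1736 and 1360 bp were covered there with vitamin C, against 3247 and 3705 bp in the controls. Each of these genes was lower past the end with vitamin C, EEF1A1 included, although its own window was not.

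Of the 57 genes with a promoter sequence, 13 (22.8%) began with a TOP run as defined above, on the transcript's own strand, against 4.59% of 15812 genes. They were EEF1A1, EEF2, TPT1, EIF2A, EIF2D, EIF2S3, EIF2S3B, EIF3D, EIF3F, EIF3K, EIF3M, EIF4A2 and EIF4B. Of these 13, 8 had peaks in all 4 libraries and 1, EIF2D, in the controls alone. Of the other 44 genes, 22 had peaks in all 4 libraries and 7 in the controls alone. A further 3 genes with a TOP run and 4 without had peaks in both controls and 1 vitamin C library. The remaining genes had no peak in both controls and could fall in none of these classes. Among genes with a peak in both controls, the share with peaks in all 4 libraries was the same with and without a TOP run. The median share of control length kept at those genes was 31.7% with a TOP run and 32.3% without. A peak reached into the stretch from 250 bases before to 50 bases after the start at 8 and 8 of the 57 genes with vitamin C, against 13 and 13 in the controls. These were 14% and 14% of the genes with vitamin C, against 22.8% and 22.8% in the controls, and over all genes 4.43% and 4.37% with vitamin C, against 10.1% and 8.65% in the controls. At EEF1A1 this stretch was covered whole in all 4 libraries, while at EEF2, TPT1 and EIF4A1 no base of it was in a peak of any library.

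Genes that peaks covered densely in the controls kept a larger share of their length. Among the 12 translation factor genes with at least 40% of their window covered in the controls, a median of 70.5% remained with vitamin C, against 59% for the 274 such genes of all. Among the 29 with under 10% covered, a median of 19.2% remained and 10 had peaks in the controls alone; the median of all such genes was 19%. Between these ranges, the median kept was 28.1% for the 10 translation factor genes with 10% to 20% covered, against 30.2% for all such genes. It was 32.2% for the 7 with 20% to 40% covered, against 38.2% for all such genes. Across the 58 genes with a peak in both controls, the share kept had a Spearman correlation of 0.60 with the covered share of the control window and of -0.57 with gene length. Over all 7047 such genes the correlations were 0.32 and -0.17. These describe genes that share the same 4 libraries, and the covered share in the controls enters the share kept. EIF4EBP3 departed from the other densely covered genes, with 52.1% of its window covered in the controls and 24.3% of its length kept.

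**Figure D5:**
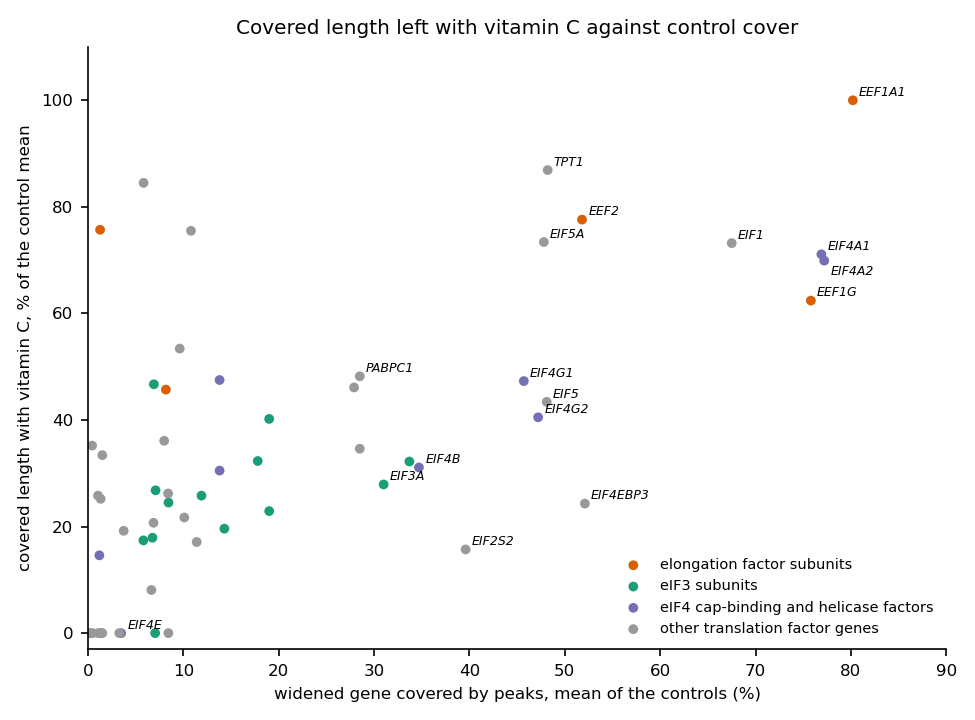
Share of the control length kept with vitamin C in percent (vertical axis) against the percent of the widened gene covered in the controls (horizontal axis); each point is 1 of the 58 translation factor genes with a peak in both controls, coloured by role, with the remaining roles in grey. EEF1A1, TPT1, EEF2, EIF4A1 and EIF4A2 lie at the upper right, and the 10 genes with peaks in the controls alone lie at 0.

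Most peaks that remained with vitamin C were at places where the controls also had one. Of the 151 and 155 peaks at translation factor genes in the vitamin C libraries, 132 and 133 overlapped a peak in both controls, and 5 and 5 overlapped a peak in neither. These shares, 87.4% and 85.8%, compare with 81.9% and 79.2% for all peaks of those libraries. In the other direction, 206 of 360 and 159 of 311 control peaks overlapped no vitamin C peak, 57.2% and 51.1%, against 65.3% and 58.4% of all control peaks. Where 1 control had peaks and so did the other, they did not always share a place: of the 10 genes with peaks in the controls alone, the controls overlapped each other at 6, while they did so at all 39 genes with peaks in all 4 libraries. The 4 without a shared place were EEF2KMT, EIF4E2, EIF2B3 and EEF1AKMT4-ECE2. Control replicate 1 had from 1 to 6 peaks at each of the 10 genes and from 1 to 30 at each of the 39. More peaks at a gene give more chances of an overlap, and the same count was not made over all genes. These counts therefore do not set translation factor genes apart from other genes.

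Other genes of translation, which are not initiation or elongation factors by symbol, were covered less in the vitamin C libraries as well. Of 48 such genes, 22 had peaks in all 4 libraries, 10 in the controls alone, and 33 were lower in both vitamin C libraries than in both controls. Those with peaks in the controls alone were PAIP2, PDCD4, GIGYF2, NCBP1, GSPT1, DPH3, MTOR, RPS6KB1, RPS6KB2 and PPP1R15A. A peak in both controls was present at 36 of these 48 genes, and the 33 lower genes were among them, beside 90.3% of all such genes. Of the 36, 61.1% had peaks in all 4 libraries, beside 49.7% of all such genes. In the controls alone, 27.8% of the 36 had peaks, beside 26.8% of all such genes. The covered length of the 48 genes with vitamin C was 37.4% of that in the controls. Of 84 cytosolic ribosomal protein genes, 77 had peaks in all 4 libraries and none had them in the controls alone, and 58.8% of their control length was covered with vitamin C.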

How the data were processed

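KAS-seq peak lists of 4 labelled HEK293T libraries were used. MACS2 2.2.7.1, Bowtie2 2.4.5, deepTools, cutadapt, Trim Galore and bcl2fastq 2.19 are named, with hg38, in the submitters' processing notes. Settings and order are not stated there. A deposited list holds, per peak, its position, the authors' fold enrichment (a linear ratio), a display score, and the −log10 of p and q as the authors' caller wrote them. Lists were made per library, and read depth is not in them. No count was tested.

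Only peaks on the autosomes and X were used, which left out between 4.23% and 5.06% of a list. The authors' fold gave the percentile of a peak within its list and served as a cutoff in 1 alternative. For lists of equal length the strongest peaks were those with the highest −log10 q, with ties broken by p and then fold. Merged peaks were intersected with RefSeq genes (GRCh38.p14, the build of hg38) widened by 1 kb, with an overlap of at least 1 bp as presence. A RefSeq promoter table gave strand for 57 of the 72 genes; where it holds several starts, the most upstream was used. Start and end were the bases within 1 kb of it. Values per library are given for the 12 genes with most control cover, for those with peaks in the controls alone, and for a list of central factors; others are given by class. The lists and genes were chosen with earlier results of these data known. Alternatives were a stricter −log10 q of 5, an authors' fold of 4, other widenings, summits only, lists of equal length, peaks over other coding or small RNA genes left out, and each replicate left out. Python 3.11.15, numpy 2.4.6, pandas 2.3.3, scipy 1.17.1 and matplotlib 3.10.9 were used. The overlap step was tested on simulated peaks at 2000 genes, where 100% of presence classes were recovered. The list of markers of other cells is not reported here in full.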

Additional observations from a re-analysis of the deposited data

How the results depend on the processing

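When lists were held to equal length, the log2 ratio was -0.58 instead of -1.30 for covered bases, 1 gene instead of 10 had peaks in the controls alone, 27 instead of 55 were lower, and the difference in start share was -0.14 instead of 1.57 percentage points, the opposite direction. That setting alone moved the first 3 results, and no setting moved the 39 genes with peaks in all 4 libraries by over 1.5 times. With summits only, 1 gene had peaks in the vitamin C libraries alone and 2 genes were higher; leaving out peaks over another coding gene gave 1 higher gene and leaving out those over small RNA genes gave 2. With no widening the start difference was 3.83 points. The end difference, 11.74 points, was 5.68 with equal lists, 10.64 at a −log10 q of 5, 12.23 at a fold of 4, 5.78 with no widening, 7.50 with 5 kb, 10.12 with summits, 12.72 without peaks over other coding genes and 13.84 without those over small RNA genes. Other widenings change which bases count in the window, so their values are shares over differently defined stretches. The cause of the other shifts was not tested. Leaving out each replicate gave log2 ratios from -1.40 to -1.19, 10 to 15 genes with peaks in the controls alone, 0 to 0 in the vitamin C libraries alone, 39 to 44 in all 4, 55 to 63 lower, 0 to 1 higher, and start and end differences from 0.58 to 2.57 and from 11.45 to 12.03 points. The replicate block left the log2 ratio at -1.30 and gave 56 lower genes; replicate numbers did not pair the libraries, as the correlation of same-numbered deviations was -0.01 over 9486 genes. Of 324 values for single genes, 7 changed sign at genes whose groups did not overlap (vitamin C minus control, mean bp): EIF4A1 by summits (2526.5), without peaks over other coding genes (1862.5) and without those over small RNA genes (889.5), EEF2 by summits (19) and without peaks over other coding genes (19), TPT1 without those over small RNA genes (3496.5), and EIF2S3 with equal lists (129). Where the groups overlapped from the start, the sign also changed at EEF1A1 with 5 kb (-970.5), by summits (-1516.5), without vitamin C replicate 1 (-316) and without control replicate 1 (-205.5), and at EIF2S1 without control replicate 1 (114.5). The lists hold no read depth, so no limit of detection can be given for a gene without a peak.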
